A study of Mus musculus with 3 samples.

Results

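The 9 genes described here encode receptors with which Mφs take up modified proteins, lipids, haemoglobin complexes and dead cells: Mrc1, Stab1, Msr1, Cd36, Axl, Mertk, Trem2, Cd163 and Folr2. They were chosen by name as scavenger and efferocytosis receptors, and they are 9 of the 14148 genes counted. The choice was made with earlier results of these data known. The shares of all genes set beside counts of receptors below are therefore a description and not a test. Each was followed through every class of cell, every state of the Mφs and every library. The libraries held CD45+ cells sorted from the muscularis externa, the muscle layer, of small bowel from WT mice of the strain C57BL/6J aged 12 weeks. They were taken from naïve mice, and at 24 h and 72 h after intestinal manipulation, a surgical handling of the gut that inflames the muscle layer. Each time point was 1 library pooled from several mice, so no test between time points was possible, and the mice within a library cannot be told apart.

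Scavenger receptors bind a broad range of ligands that carry negative charge, sugars or oxidised lipid, and deliver them to lysosomes. Efferocytosis is the engulfment of apoptotic cells. Its receptors recognise phosphatidylserine on the dying cell, either directly or through bridging proteins such as Gas6 and protein S, and the engulfed lipid is then exported by transporters such as Abca1 and Abcg1. Tissue-resident Mφs of many organs express these receptors, while monocytes newly arrived from blood express fewer of them, and clearing dead neutrophils is part of how inflammation resolves.

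The naïve library held 652 cells, the 24 h library 2211 and the 72 h library 1239, with 1865221, 10542346 and 5246731 UMIs and a median of 2134, 4669 and 3295 UMIs per cell. A UMI is a molecular tag that counts 1 captured transcript. Clustering without the 9 receptors gave 139 naïve monocyte/Mφ-like cells, 1547 at 24 h and 565 at 72 h, named from Csf1r, Lyz2, Adgre1, Fcgr1 and other markers that were not among the receptors. The rest were named as B cell-like, T cell-like, neutrophil-like or DC-like, except for an unnamed cluster led by Siglecf and Ptgs2. Different clusters held most of the monocyte/Mφ-like cells of each library. A Cx3cr1 state held 73 of the naïve cells, and a Selenop state and a Timp2 state held 246 and 124 of those at 72 h. The 24 h cells were mostly in a Fabp5 state (430 cells), a Ly6c state (338), an Ltc4s state (272) and a Plbd1 intermediate state (192). A small Arg1 state held 42 cells at 24 h and 20 at 72 h, and 2 clusters stayed unnamed. Because most states came largely from 1 library, state and library cannot be told apart for them. Immunoglobulin genes were among the leading genes of the Cx3cr1 state (Igkc, Jchain) and of the Fabp5 state (Igha, Jchain). Stab1 and Cd36 are also endothelial genes, and the endothelial marker Cdh5 had 0, 6 and 0 UMIs in the naïve, 24 h and 72 h libraries, Kdr had 1, 51 and 6, Egfl7 had 3, 4 and 4, and Pecam1, which leukocytes also express, had 82, 182 and 148.

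The receptors are encoded on 7 chromosomes of the mouse genome (GRCm38, GENCODE M21). Mrc1 (chr2:14229392-14332057) and Mertk (chr2:128698956-128802894) lie on chromosome 2 and Axl (chr7:25757273-25788705) and Folr2 (chr7:101839988-101857194) on chromosome 7. Stab1 lies at chr14:31139013-31168641, Msr1 at chr8:39581685-39642673, Cd36 at chr5:17781690-17888801, Trem2 at chr17:48346401-48354147 and Cd163 at chr6:124304656-124330527. RefSeq start sites matched 8 of the 9 genes, all but Msr1. The 250 bases before the start are shown for 5 of them, the 4 receptors whose highest level was in the Selenop state of Mφs described below (Mrc1, Stab1, Trem2 and Cd163) and Cd36, which was low in that state at 72 h, read on the strand of the gene from build GRCm38.p6, with matches to 6 motifs of Mφ transcription factors and core promoters in capitals. The stretch of Mrc1 spans chr2:14229164-14229413 (+), that of Stab1 chr14:31168642-31168891 (-), that of Trem2 chr17:48346151-48346400 (+), that of Cd163 chr6:124304401-124304650 (+) and that of Cd36 chr5:17835897-17836146 (-).
Mrc1: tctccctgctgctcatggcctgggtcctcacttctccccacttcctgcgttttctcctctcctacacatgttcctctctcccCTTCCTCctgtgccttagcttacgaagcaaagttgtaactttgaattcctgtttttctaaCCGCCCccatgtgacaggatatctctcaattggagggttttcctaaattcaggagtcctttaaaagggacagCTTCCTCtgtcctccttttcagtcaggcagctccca
Stab1: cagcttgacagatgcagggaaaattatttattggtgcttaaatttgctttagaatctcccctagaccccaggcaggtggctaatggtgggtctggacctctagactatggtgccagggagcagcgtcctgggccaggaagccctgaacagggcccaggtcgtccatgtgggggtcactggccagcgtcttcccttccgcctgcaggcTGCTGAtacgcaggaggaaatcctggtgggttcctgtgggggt
Trem2: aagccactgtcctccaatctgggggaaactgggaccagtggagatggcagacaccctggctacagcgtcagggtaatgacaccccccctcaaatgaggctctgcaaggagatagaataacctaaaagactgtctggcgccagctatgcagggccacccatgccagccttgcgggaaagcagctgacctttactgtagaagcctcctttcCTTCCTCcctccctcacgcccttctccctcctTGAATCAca
Cd163: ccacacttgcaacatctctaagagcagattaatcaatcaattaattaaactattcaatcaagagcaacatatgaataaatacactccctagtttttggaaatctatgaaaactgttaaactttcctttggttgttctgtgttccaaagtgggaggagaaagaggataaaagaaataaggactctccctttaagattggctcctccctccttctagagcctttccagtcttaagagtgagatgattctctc
Cd36: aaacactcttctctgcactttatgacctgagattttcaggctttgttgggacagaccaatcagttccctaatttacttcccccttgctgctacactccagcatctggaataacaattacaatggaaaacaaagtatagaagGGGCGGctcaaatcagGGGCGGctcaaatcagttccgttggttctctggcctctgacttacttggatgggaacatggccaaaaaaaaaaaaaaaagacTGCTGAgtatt

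The PU.1 letters GAGGAAG, searched on both strands like all the motifs, occurred in Mrc1, Axl and Trem2, and in 10.6% of 32851 mouse promoters of this length. In the lines above they read CTTCCTC in Mrc1, at 2 places, and in Trem2, at 1. The MAF recognition letters TGCTGA were found in Stab1, Cd36 and Folr2, against 16.1% of all promoters. AP-1 (TGANTCA) was found in Trem2 and Folr2 against 6.75%, and SP/KLF (GGGCGG) in Mrc1, Cd36, Axl and Mertk against 32.7%. Folr2 had 2 promoters, and AP-1 was in the second only, while the shares are of single promoters. The C/EBP letters TTGCGCAA and the TATA letters TATAAA occurred in none of the 8, and in 0.164% and 12.4% of all promoters. No 2 of these motifs shared bases in the lines shown. The Cd163 stretch held none of the 6 motifs. Its GC content was 36.8%, and the median over all promoters was 52.4%. The Cd36 stretch lies inside the annotated gene, which has 6 transcripts, so that its start is 1 of several. These matches describe letters only, and no binding was measured.

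Most receptor transcripts came from the monocyte/Mφ-like cells. These cells held 676 of the 821 receptor UMIs of the naïve library (82.3%), 10285 of 10605 at 24 h (97%) and 4535 of 5215 at 72 h (87%). Levels are given as CPM, the summed UMIs of a gene as a share of all summed UMIs of the group on the usual CPM scale, with a 95% Poisson interval. Such intervals, and those of ratios and shares, cover counting error only. The 9 receptors together reached 1371 CPM in naïve monocyte/Mφ-like cells, 1141 at 24 h and 1499 at 72 h. In T cell-like cells, which should lack them, they reached 27.4, 111 and 99.1 CPM, and Mertk and Cd163 had 0 UMIs in all 3 libraries. The interval of a count of 0 there reaches 7.76 CPM in naïve, 19.6 in 24 h and 8.7 in 72 h cells. In T cell-like cells, Trem2 at 24 h (47.7 CPM) and 72 h (28.3) and Axl at 24 h (31.8) were the highest single values.

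Mrc1, Stab1 and Cd163 were lower at 24 h than in naïve monocyte/Mφ-like cells, and at 72 h the first 2 were near their naïve levels again while Cd163 was not. Mrc1, the mannose receptor CD206, measured 258 CPM (215 to 307) in naïve monocyte/Mφ-like cells, 143 (135 to 151) at 24 h and 321 (301 to 342) at 72 h. The intervals of the naïve and 72 h libraries lay above that at 24 h and overlapped one another. Stab1, stabilin-1, a receptor of altered extracellular proteins and phosphatidylserine, had the same order, with 176 CPM (141 to 218), 78.1 (72.4 to 84.1) and 179 (164 to 194). Cd163, which binds haemoglobin in complex with haptoglobin, measured 54.8 CPM (36.1 to 79.7) in naïve cells, 6.1 (4.6 to 7.94) at 24 h and 14.2 (10.3 to 19.1) at 72 h. It rested on 27, 55 and 43 UMIs, and unlike the other receptors named so far its 72 h interval stayed below the naïve one. Folr2, the folate receptor beta of tissue Mφs, was at 112 CPM (84 to 145), 97.7 (91.4 to 104) and 139 (126 to 153), and only the last of these stood apart from another, that at 24 h.

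The receptors of modified lipid differed between libraries in other ways. Msr1, the class A scavenger receptor that binds modified LDL, measured 89.3 CPM (64.9 to 119.8) in naïve monocyte/Mφ-like cells, 267 (257 to 278) at 24 h and 139 (126 to 153) at 72 h. It was the 1 receptor of the 9 that peaked at 24 h with an interval apart from both others. Cd36, which binds oxidised LDL and long-chain fatty acids, measured 170.4 CPM (136 to 211), 142 (135 to 150.2) and 61.5 (52.9 to 71), so its 72 h interval lay below both earlier ones. Trem2, a lipid receptor that signals through Tyrobp, measured 355 CPM (304 to 412), 278 (267 to 289) and 455 (431 to 479), with 3 intervals apart from each other and the lowest at 24 h.

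The TAM receptor tyrosine kinases, which bind apoptotic cells through Gas6 and protein S, differed less between libraries. Axl measured 126 CPM (96.4 to 161) in naïve cells, 91.8 (85.6 to 98.2) at 24 h and 145 (131 to 159) at 72 h, and its 24 h and 72 h intervals were apart. Mertk measured 30.4 CPM (17 to 50.2), 36.9 (33.1 to 41.1) and 45.9 (38.6 to 54.2), and its 3 intervals overlapped. The naïve one was wide, on 15 UMIs. The third member of the family, Tyro3, was not among the genes counted.

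**Figure D1:**
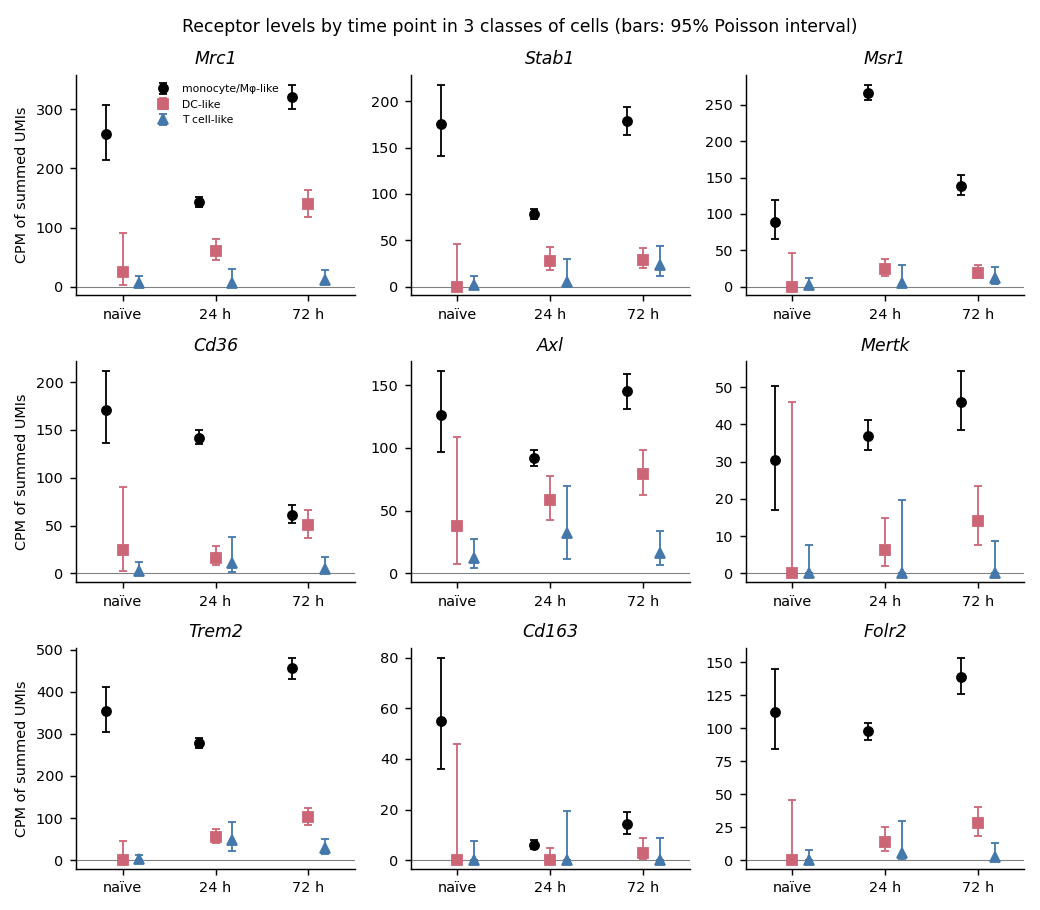
Level of each receptor (CPM of summed UMIs, vertical axis, scaled per gene) in monocyte/Mφ-like, DC-like and T cell-like cells of the naïve, 24 h and 72 h libraries, with 95% Poisson intervals. Mrc1, Stab1 and Cd163 dip at 24 h in monocyte/Mφ-like cells, Msr1 peaks there at 267 CPM, and Cd36 is lowest at 72 h, where it reaches 61.5 CPM.

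The share of monocyte/Mφ-like cells with at least 1 Mrc1 UMI was 46.8% before injury, 40.9% at 24 h and 64.8% at 72 h. With cells thinned to 1500 UMIs and shallower cells left out, which kept 121 of the 139 naïve, 1471 of the 1547 24 h and 525 of the 565 72 h cells, these shares were 25.6% (18.1 to 34.4), 18.2% (16.2 to 20.2) and 34.3% (30.2 to 38.5). The thinned share for Cd36 was 24% (16.7 to 32.6), 15.5% (13.7 to 17.5) and 8% (5.83 to 10.7), against 33.1%, 30.1% and 15.9% before thinning. For Msr1 the shares were 22.3%, 63.9% and 42.7% before thinning and 10.7% (5.85 to 17.7), 29.8% (27.5 to 32.3) and 18.1% (14.9 to 21.7) after it. The order over the time points was the same before and after thinning for these 3 receptors. In T cell-like cells the thinned share of Mrc1, Cd36 and Msr1 was at most 2.96%. Mertk was found in 8.63%, 18.1% and 20.9% of the monocyte/Mφ-like cells before thinning. After thinning, its naïve share of 1.65% (0.201 to 5.84) came from too few cells to be set against the other libraries.

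Ratios between libraries were read against all genes, a gene being compared where it reached 20 CPM in either group and 10 UMIs in both together, and counted as past 2-fold from the ratio alone. The 3 comparisons share libraries and are therefore not independent of each other. At 24 h against naïve, 1 of the 9 receptors was past 2-fold higher, where 9.82% of 5581 compared genes were, and 2 were past 2-fold lower, where 11% of the genes were. Msr1 was 3 times its naïve level (2.22 to 4.13), Stab1 0.443 times (0.354 to 0.56) and Cd163 0.111 times (0.0691 to 0.184). Mrc1 fell short of 2-fold at a ratio of 0.555 (0.462 to 0.671), and Axl (0.73), Trem2 (0.783), Cd36 (0.835), Folr2 (0.876) and Mertk (1.21) lay nearer to 1. The median of the 9 log2 ratios was -0.35, against 0.08 over all genes compared. With cells thinned to 1500 UMIs, Msr1 was at 1.88 times naïve, inside 2-fold, and Mertk at 3.7 times, on few thinned naïve cells.

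At 72 h against 24 h, 2 of the 8 receptors compared were past 2-fold higher, where 4.02% of 5223 genes were, and 1 was past 2-fold lower, where 3.73% were. Mrc1 was 2.25 times (2.06 to 2.44) and Stab1 2.29 times (2.04 to 2.56) its 24 h level, and Cd36 was 0.432 times (0.369 to 0.504). Cd163, at a ratio of 2.33, stayed under the level needed to be compared. Trem2 (1.64), Axl (1.58), Folr2 (1.42) and Mertk (1.24) were higher by less than 2-fold, and Msr1 was at 0.52. Cd36 was at 0.534 with thinned cells and at 0.502 as a mean over cells, both inside 2-fold.

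At 72 h against naïve, 0 of the 9 receptors were past 2-fold higher, where 3.68% of 5521 genes were, and 2 were past 2-fold lower, where 5.33% were. These were Cd36, at 0.361 times (0.277 to 0.472) its naïve level, and Cd163, at 0.259 times (0.157 to 0.437). Mrc1 (1.25) and Stab1 (1.01) were close to their naïve levels, and Msr1 (1.56), Mertk (1.51), Trem2 (1.28), Folr2 (1.24) and Axl (1.15) were higher by less than 2-fold. With cells thinned to 1500 UMIs, Mertk was at 4.49, past 2-fold, on few naïve cells. Equal levels in a class made of different states do not show that a state was unchanged, and the states are therefore given next.

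The Selenop state, named from Selenop, Igf1, Fcrls, Igfbp4 and Ccl8, had the most Mrc1 and Stab1 of all states. Mrc1 measured 487 CPM (449.8 to 526) in its 72 h cells and 440.0 (318 to 593) in its 26 naïve cells, above 298 (230.4 to 379) in the naïve Cx3cr1 state and 256 in the Cx3cr1 state at 72 h. Among the named states, next came the Plbd1 intermediate state at 72 h (243), the Fabp5 state (205) and the Timp2 state (178). The Plbd1 intermediate state at 24 h (143) and the Ltc4s state (98.6) came after them. Then followed the Ly6c state at 72 h (72.4) and 24 h (68.4) and the Arg1 state (41.6 and 40.2). The unnamed clusters, given at the end, are left out of this order, although the larger measured more Mrc1 at 24 h than the Fabp5 state. The naïve and 72 h intervals of the Selenop state overlapped, and so did those of the naïve Selenop and Cx3cr1 states. Stab1 measured 294 CPM (265 to 325) in the 72 h Selenop cells and 246 in the naïve ones, 194 and 152 in the Cx3cr1 state of naïve and 72 h, 118 in the Fabp5 state and 104 in the Timp2 state, and 45.3 in the Ly6c state at 24 h. An Mrc1 UMI was present in 86.2% of the 72 h Selenop cells and a Stab1 UMI in 67.9%, and with thinned cells in 50.4% and 33.5%.

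Cd163 and Trem2 were also highest in the Selenop state, but there in its naïve cells. Trem2 measured 911 CPM in the naïve and 624 (582 to 668) in the 72 h Selenop cells, then 421 (399 to 445) in the Fabp5 state, 416 in the Arg1 state at 72 h, 368 and 248 in the Cx3cr1 state at 72 h and in naïve, 346 in the Timp2 state and 173 in the Ly6c state at 24 h. Cd163 measured 102 CPM (49.1 to 188) in the naïve Selenop cells, 45.1 (21.6 to 83) in the naïve Cx3cr1 cells and 23.7 (16.1 to 33.7) in the 72 h Selenop cells, with 10, 10 and 31 UMIs, and neighbours in this order overlapped. Of the 10 UMIs in naïve Selenop cells, 6 came from 1 cell. After thinning, Cd163 was found in 4.76% of the naïve cells of either state. In the Fabp5 and Ltc4s states it was at 9.43 and 10.2 CPM, with 29 and 14 UMIs. The Ly6c state at 24 h had 3 Cd163 UMIs in 338 cells, and the Arg1 state had 0, with intervals up to 18.5 CPM at 24 h and 51.2 at 72 h.

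Folr2 ranked the states in an order other than that of Mrc1. It measured 349.7 CPM (304 to 401) in the Timp2 state at 72 h, 317 in the naïve Selenop cells and 268 (242 to 297) in the Ltc4s state at 24 h. The Fabp5 state followed with 126 (113 to 139) and the 72 h Selenop cells with 121 (103 to 141), 2 intervals that overlapped. The Cx3cr1 state had 27.1 in naïve and 24 at 72 h, the Ly6c state 27 at 24 h, and the Plbd1 intermediate state 13.5 at 24 h and 14.1 at 72 h. The Ly6c state at 72 h had 0 Folr2 UMIs in 29 cells, with an interval up to 20.5 CPM. Folr2 was itself among the 10 leading genes of the Ltc4s state, beside Cd5l and Arg1, although it was left out of the clustering.

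Cd36 was highest in the Arg1 state, named from Arg1, Cxcl3, Il1rn, Slc7a11 and Srgn, where it measured 693 CPM (515 to 914) at 72 h and 332 (257 to 422) at 24 h. The Ltc4s state (281), the naïve Cx3cr1 state (248, 187 to 323) and the Fabp5 state (210.2) were next, the Timp2 state had 121, and the 72 h Selenop cells had 26.8 (18.7 to 37.3), near the Ly6c state at 24 h (25.3) and the Plbd1 intermediate state (18.8 at 24 h and 14.1 at 72 h). Msr1 ranged over the 24 h states from 322 CPM in the Arg1 state through 296 in the Fabp5 state, 289 in the Ltc4s state and 273 in the Ly6c state to 187 in the Plbd1 intermediate state, where the first 4 overlapped. The Selenop state had 113 in naïve and 112 at 72 h and the naïve Cx3cr1 state 49.7 (24.8 to 88.8), the lowest of the 13 groups. The Fabp5 and Ly6c states of 1 library therefore differed in Cd36, while their Msr1 intervals overlapped.

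Axl and Mertk, the TAM receptors, were highest in different states. Axl measured 408 CPM (304 to 537) in the Cx3cr1 state at 72 h, with a UMI in 95.5% of its 22 cells and in 36.4% after thinning, against 189.6 (137 to 256) in the naïve Cx3cr1 state. The Arg1 state at 72 h had 263 and the Plbd1 intermediate state 195 at 72 h and 179.9 at 24 h, then came the 72 h Selenop cells (139), the Ly6c state at 24 h (105), the Timp2 state (91.7), the Fabp5 state (74.2) and the Ltc4s state (30.5), which was near the 31.8 CPM of the T cell-like cells of the same library. Mertk measured 61.4 and 59.7 CPM in the naïve and 72 h Selenop cells, 47.8 in the Fabp5 state, 40.7 in the Timp2 state, 31.8 in the Ly6c state at 24 h, and 13.5 (3 UMIs) and 16 (2 UMIs) in the Cx3cr1 state of naïve and 72 h. Its highest value, 139 CPM in the Arg1 state at 72 h, rested on 10 UMIs in 20 cells.

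**Figure D2:**
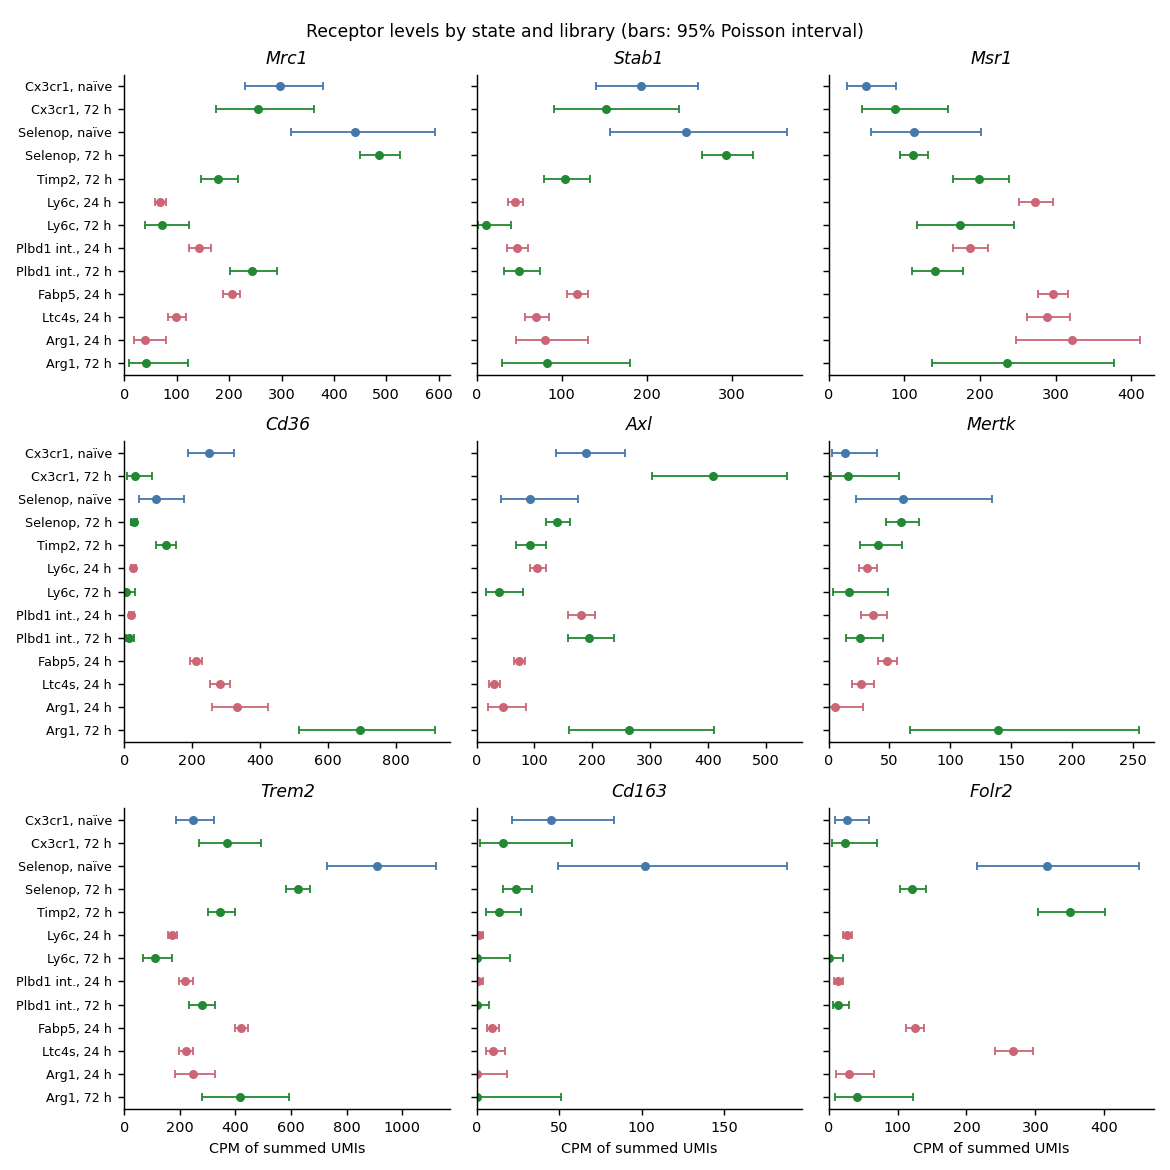
Level of each receptor (CPM of summed UMIs, horizontal axis, scaled per gene) in the 13 groups of state and library with at least 20 cells, with 95% Poisson intervals, coloured by library. Mrc1 and Stab1 are highest in the Selenop state, Folr2 in the Timp2, naïve Selenop and Ltc4s groups, Cd36 in the Arg1 state (693 CPM at 72 h) and Axl in the 72 h Cx3cr1 state (408 CPM).

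The Fabp5 and Ly6c states of the 24 h library were compared within that library. Of the 8 receptors compared, 5 were past 2-fold higher in the Fabp5 state, where 3.23% of 5135 genes were, and 0 were past 2-fold lower, where 5.37% were. Cd36 was 8.31 times as high (6.35 to 11.1), Folr2 4.65 times (3.55 to 6.18), Mrc1 2.99 times (2.51 to 3.58), Stab1 2.6 times (2.09 to 3.27) and Trem2 2.43 times (2.17 to 2.72). Msr1 (1.08), Mertk (1.5) and Axl (0.703) stayed inside 2-fold, and Cd163 had 29 against 3 UMIs and was not compared. The median log2 ratio of the receptors was 1.33, against -0.02 over all genes. The 2 states had similar depth, with medians of 6994 and 6692 UMIs per cell over all libraries. Set against the same Ly6c cells, the Ltc4s state had 11.1 times the Cd36 (8.4 to 14.9), 9.93 times the Folr2 (7.57 to 13.2) and 0.289 times the Axl (0.203 to 0.402). The Plbd1 intermediate state had 2.09 times the Mrc1 (1.68 to 2.6), 1.71 times the Axl and 0.501 times the Folr2.

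The Selenop and Timp2 states of the 72 h library divided the receptors in both directions. Past 2-fold higher in the Selenop state were 2 of 9, where 7.51% of 5445 genes were, and past 2-fold lower were 2, where 10.8% were. Mrc1 was 2.73 times (2.22 to 3.39) and Stab1 2.84 times (2.16 to 3.78) the level of the Timp2 state, while Cd36 was 0.222 times (0.144 to 0.338) and Folr2 0.346 times (0.279 to 0.428). Trem2 (1.8), Cd163 (1.75), Axl (1.52), Mertk (1.47) and Msr1 (0.563) stayed inside 2-fold. Under a stricter cell filter (500 genes, 5% mitochondrial UMIs), Cd163 was at 2.93 and Msr1 at 0.44. Scaling to the median of all genes, which shifted log2 ratios by -0.17 here, put Trem2 at 2.02.

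The 72 h Selenop cells were set beside the main Mφ state of the naïve muscularis, the Cx3cr1 state, which changes state and library at the same time. Past 2-fold higher were 4 of 9 receptors, where 11.7% of 5570 genes were, and 1 was past 2-fold lower, where 13.9% were. Cd36 was 0.108 times the naïve Cx3cr1 level (0.0686 to 0.168). Folr2 was 4.47 times as high (2.01 to 12.4), Trem2 2.51 times (1.91 to 3.37) and Msr1 2.25 times (1.22 to 4.61), and Mertk, whose 3 naïve UMIs came from 1 cell, 4.41 times (1.45 to 21.8). As a mean over cells, Mertk was at 1.95, inside 2-fold. Mrc1 (1.63), Stab1 (1.51), Axl (0.735) and Cd163 (0.526) stayed inside 2-fold. The shift of all genes under median scaling was -0.16 on the log2 scale. With cells thinned to 1500 UMIs, 2 receptors were past 2-fold higher and 2 lower.

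**Figure D3:**
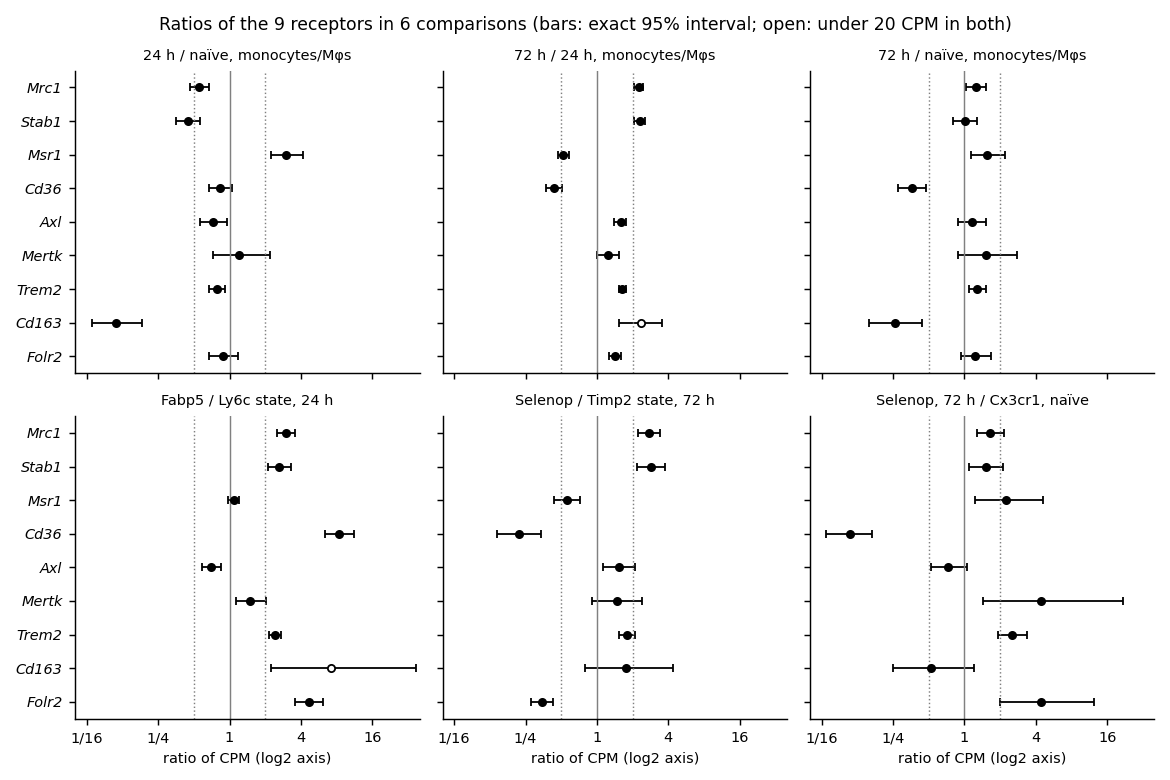
Ratio of CPM with its exact 95% interval for the 9 receptors in 6 comparisons, on a log2 axis with dotted lines at 2-fold in either direction; open points mark receptors under 20 CPM in both groups. Msr1 at 24 h against naïve (3) and Cd36 in the Fabp5 against the Ly6c state (8.31) lie to the right, and Cd163 at 24 h against naïve (0.111) and Cd36 in the 72 h Selenop against the naïve Cx3cr1 state (0.108) to the left.

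Some states had cells in 2 libraries, which allowed the same state to be set side by side across time, with few cells in at least 1 library each. In the Selenop state, 246 cells at 72 h against 26 naïve ones, Mrc1 was at a ratio of 1.11 (0.812 to 1.54), while Cd36 was at 0.291 (0.137 to 0.688), Cd163 at 0.232 (0.111 to 0.53), Folr2 at 0.381 (0.258 to 0.58) and Trem2 at 0.685. Over all monocyte/Mφ-like cells of the same libraries, by contrast, Folr2 was at 1.24. In the Cx3cr1 state, 22 cells at 72 h against 73 naïve ones, Mrc1 was at 0.86, Cd36 at 0.129 (0.0339 to 0.349) and Axl at 2.15 (1.4 to 3.32). Cd36 was thus lower at 72 h in the 2 states with at least 20 cells in both of these libraries. The Timp2 state, left out with 12 naïve cells, had 39.2 CPM in naïve (4.75 to 142, on 2 UMIs) and 121 at 72 h. In the Plbd1 intermediate state at 72 h against 24 h, Mrc1 was at 1.7 (1.34 to 2.15) and Axl at 1.08. In the Ly6c state, Mrc1 was at 1.06 and Axl at 0.37 (0.147 to 0.773), with 6 of its 7 UMIs at 72 h in 1 of 29 cells. In the Arg1 state, Cd36 was at 2.09 (1.42 to 3.06) and Axl at 5.82 (2.51 to 14.6), while Msr1 was at 0.733.

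Within the naïve library, the Cx3cr1 and Selenop states differed in the lipid and folate receptors. The Cx3cr1 cells had 0.0854 times the Folr2 (0.0291 to 0.208) and 0.273 times the Trem2 of the Selenop cells, and 2.7 times the Cd36 (1.32 to 6.2). In the 72 h library the Cx3cr1 cells had 0.199 times the Folr2 and 2.93 times the Axl (2.1 to 4.02) of the Selenop cells. Folr2 was therefore lower in the Cx3cr1 than in the Selenop state in both libraries.

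Counted per cell after thinning to 1500 UMIs, 30.9% of the 236 Selenop cells at 72 h had at least 3 of the 9 receptors and 6.36% had 0, with a mean of 2.05 and a highest number of 7. The Fabp5 state had 25.2% with at least 3 and 11% with 0, the Timp2 state 20.4% and 18.4%, the Ltc4s state 20.1% and 16.6%, and the naïve Cx3cr1 state 17.5% in each of these categories. The Ly6c state at 24 h had 4.15% with at least 3 and 41.5% with 0, and at 72 h, in 29 cells, 3.45% and 62.1%. The share of cells with a second receptor was compared between cells with and without a first, and the intervals, which were wide, were apart in 0 of 64 ordered pairs in the Fabp5 state, 0 of 48 in the Ltc4s state, 0 of 56 in the 72 h Selenop state and 1 of 32 in the 72 h Timp2 state. In that 1 pair, Stab1 was found in 10 of 32 Timp2 cells with Folr2 (31.2%) and in 4 of 71 without it (5.63%).

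**Figure D4:**
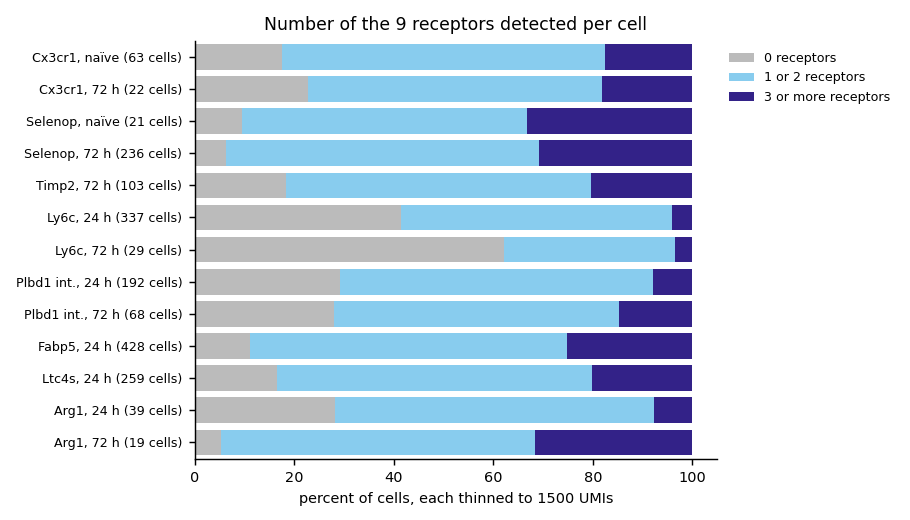
Percent of cells (horizontal axis), each thinned to 1500 UMIs, with 0, with 1 or 2, and with 3 or more of the 9 receptors, per group of state and library. The Selenop cells at 72 h (30.9% with 3 or more) and the Ly6c cells at 24 h (4.15%) mark the ends among groups of over 100 cells.

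Outside the monocyte/Mφ-like class, the receptors were compared with 1 other class per library. In the naïve library, 9 of 9 receptors were past 2-fold higher in monocyte/Mφ-like than in B cell-like cells, where 21.2% of 6244 genes were, and 0 lower, where 21.1% were. The ratios ran from 4.63 (Folr2) to 46.7 (Trem2). They depended on which cells were clustered as B cell-like, Stab1 being at 7.33 and, with 15 and 10 principal components, at 42.9. Of the 124 receptor UMIs in the 277 B cell-like cells, 116 were in the 10 cells that also had at least 5 UMIs of the complement genes C1qa, C1qb and C1qc. These 10 cells had a median of 4953 UMIs against 1816 in the others, in which the receptors summed to 11 CPM. At 24 h, all 8 receptors compared were past 2-fold higher than in neutrophil-like cells, where 38% of 5378 genes were, and 0 were lower, where 18.2% were. The ratios ran from 5.3 (Folr2, 2.56 to 13.2) to 14 (Mertk, 2.5 to 555). They rested on few UMIs in the neutrophil-like cells, 7 for Folr2 and 1 for Mertk, at a median of 898 UMIs per cell. The neutrophil-like cells summed to 171 CPM, above the 111 CPM of the T cell-like cells.

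DC-like cells at 72 h had the highest summed level of the 9 receptors outside the monocyte/Mφ-like class, 465 CPM. Past 2-fold higher in monocyte/Mφ-like cells were 6 of 8 receptors, where 9.3% of 5453 genes were, and 0 were lower, where 7.41% were. Msr1 (7.31 times, and 31.8 times with thinned cells), Stab1 (6.16), Folr2 (4.95), Trem2 (4.41), Mertk (3.28) and Mrc1 (2.3) were past 2-fold, while Axl (1.83) and Cd36 (1.23) were not. In DC-like cells Mrc1 measured 60.8 CPM at 24 h and 139 (117 to 164) at 72 h, a ratio of 2.29 (1.64 to 3.25), Cd36 16.5 and 50.1 (37.2 to 66), a ratio of 3.04 (1.63 to 6.1), and Axl 58.3 and 79.1, a ratio of 1.36. C1q genes moved with these values. At 72 h, 65 of the 142 DC-like cells had at least 5 C1q UMIs, and they held 371 of the 464 receptor UMIs, among them 96 of 139 for Mrc1 and 43 of 50 for Cd36. The other 77 cells summed to 186 CPM, with Cd36 at 14 CPM (7 UMIs). At 24 h, 28 of 118 cells had as many C1q UMIs and held 103 of 208 receptor UMIs and 7 of 13 for Cd36, and the other 90 cells summed to 184 CPM, with Cd36 at 10.5 (6 UMIs). The part of Mφ RNA or of cell pairs in the DC-like values was not tested.

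The ligands and partners of the receptors were taken as fixed lists and described by counts, beside the shares of all genes given above. Of 12 bridging ligand and engulfment receptor genes compared at 24 h against naïve, 2 were past 2-fold higher (Cd300lf, Tgm2) and 6 lower (Gas6, Pros1, Itgb5, C1qa, C1qb, C1qc), with a median log2 ratio of -0.72 against 0.08 over all genes. Gas6, the ligand of Axl and Mertk, measured 114 CPM in naïve monocyte/Mφ-like cells, 11.2 at 24 h and 79 at 72 h. Pros1, protein S, measured 46.7, 16.4 and 38.7 CPM, and C1qa, the opsonin subunit, 5262, 1283 and 3441. At 72 h against 24 h, 5 of the 12 were past 2-fold higher (Gas6, Pros1, C1qa, C1qb, C1qc) and 0 lower. Gas6 was at 0.0986 times naïve (0.0705 to 0.139) at 24 h and then at 7.05 times (5.56 to 8.98) the 24 h level, a wider swing than that of Axl or Mertk. Within the 72 h library Gas6 was 6.18 times as high in the Selenop as in the Timp2 state (3.6 to 11.5), while Pros1 (0.34), Tgm2 (0.311) and Thbs1 (0.238) were lower.

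Genes that handle engulfed cargo were taken as a list of lysosome and sterol genes. Of 19 lysosome and sterol genes at 24 h against naïve, 7 were past 2-fold higher (Abcg1, Nr1h3, Pparg, Npc1, Ctsd, Ctsl, Lpl) and 2 lower (Ppard, Apoe), with a median of 0.56 on the log2 scale against 0.08. Lpl, lipoprotein lipase, measured 50.7 CPM in naïve cells, 485 at 24 h and 140.4 at 72 h. Ctsl, the protease cathepsin L, measured 207, 679.8 and 353 CPM, and Apoe, which carries exported cholesterol, 28947, 4628 and 24223. Lpl was thus 9.56 times naïve at 24 h (6.46 to 14.8), and Apoe was 5.23 times its 24 h level at 72 h (5.17 to 5.3). At 72 h against 24 h, 3 of these 19 were past 2-fold higher (Abca1, Rxra, Apoe) and 3 lower (Nr1h3, Pparg, Lpl). In the Fabp5 against the Ly6c state, 6 of 18 were higher (Abca1, Nr1h3, Npc1, Ctsb, Ctsd, Ctsl) and 0 lower. Hmox1, which breaks down haem taken up through Cd163, measured 52.7 CPM in naïve cells, 188 at 24 h and 140.4 at 72 h, an order unlike that of Cd163.

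The other lists were adaptors, other scavenger receptors, transcription factors and genes that restrain engulfment. Of 12 engulfment and adaptor genes, among them Tyrobp, the partner of Trem2, 0 were past 2-fold in either direction in any of the 3 comparisons between libraries. Of 6 other scavenger receptors compared at 24 h against naïve, 0 were higher and 1 was lower, Cxcl16, a receptor of oxidised lipid, at 471 CPM in naïve cells, 89 at 24 h and 254 at 72 h. Between the Selenop and Timp2 states, 3 of 8 other scavenger receptors were past 2-fold lower in the Selenop state, namely Cd5l (0.0225 times), Lyve1 (0.0354) and Olr1 (0.0564), and Cxcl16 was 4.52 times as high. Of 13 Mφ transcription factors, 1 was past 2-fold higher (Cebpb) and 2 lower (Runx1, Mef2c) at 24 h against naïve. In the Fabp5 against the Ly6c state, 1 of 13 was past 2-fold higher, Maf at 2.5 times (2.21 to 2.83), and 0 were lower. The median log2 ratio of these 13 was -0.37, against -0.02 over all genes. Between the Selenop and Timp2 states, 2 of 15 were higher (Irf8, Mef2c) and 5 lower (Cebpb, Irf4, Klf4, Klf2, Gata6). Of 5 genes that restrain engulfment compared at 24 h against naïve, 0 were past 2-fold in either direction.

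Likeness of pattern was measured as Pearson's r of log2(CPM + 10) over the 13 groups of state and library, among 7819 genes. Groups of 1 library share its depth, so r is a description. The genes most like Mrc1 were Selenop (r = 0.936), Pla2g15 (0.934) and Fundc2 (0.931). Those most like Stab1 were Nenf (0.872), Ptms (0.87) and Blnk (0.858), those most like Trem2 Wdr81 (0.923), Rasa1 (0.895) and Sgsh (0.875), and those most like Cd163 Gas6 (0.928), Sult1a1 (0.895) and Phc2 (0.888). Folr2 was most like Serpinb6a (0.917), Cbr2 (0.906) and Plxnb2 (0.892), and Cd36 most like Trim8 (0.897), Anapc11 (0.876) and Rhoc (0.867). Msr1 was most like Ywhab (0.98), Chchd2 (0.978) and Cyba (0.976), Axl most like Tor1a (0.93), Klkb1 (0.878) and Spint1 (0.875), and Mertk most like Cdk5 (0.907), Otulin (0.901) and Ptdss2 (0.887). Some of these r values rest on few UMIs in a small group where the receptor was also high. Klkb1 and Cdk5 reached 27.7 CPM and Ptdss2 41.6 at most, in the Arg1 state at 72 h, where 3 UMIs are 41.6 CPM. Wdr81 reached 20.5 CPM at most, in the naïve Selenop cells, where 3 UMIs are 30.7 CPM. Among the receptors themselves, the pairs most alike were Stab1 and Trem2 (0.85), Stab1 and Cd163 (0.79), Mrc1 and Cd163 (0.76) and Mrc1 and Stab1 (0.68). Msr1 ran opposite to Mrc1 (-0.71) and Cd163 (-0.63).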

How the data were processed

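CD45+ cells were profiled by droplet-based scRNA-seq (10x Genomics 3′ kit) in 3 libraries, 1 per time point. Per the labels, Cell Ranger 3.0.2 and the mm10 build were used by the authors, and the deposited values are UMI counts per gene and cell after their filter (a minimum of 200 genes and a maximum of 10% mitochondrial UMIs). The totals per library, and with them the precision, are given in the opening. The files held as many cells as the study clustered, and no further filter was applied. The libraries shared 1 barcode in each pair. Cells were clustered without the 9 receptors or the list genes with Seurat 5.3.0 in R 4.3.3 (2000 variable genes, 30 principal components, 20 for monocytes/Mφs, 20 neighbours, resolution 0.8, seed 0). Clusters were named where at least 3 markers were detected in 10% of cells and 2-fold above other cells, unless their leading genes held as many markers of another set or at least 2 of another cell class. Scrublet in scanpy 1.11.5 called 16 doublets, which were kept, and their removal was an alternative. UMIs were summed per class or state and library, groups under 20 cells were left out, and ratios carry exact conditional Poisson and shares exact Clopper-Pearson intervals at 95%, from SciPy 1.17.1. No test between groups was run. All 9 receptors were named whatever their values, with the 3 genes most like each and fixed gene lists. The members and lists were chosen with earlier results of these data known. The ratio step was tested on simulated counts.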

Additional observations from a re-analysis of the deposited data

Results flagged for a closer look

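Cd36 moved in opposite directions from 24 h to 72 h in 2 classes of cells. In DC-like cells it was 3.04 times its 24 h level (1.63 to 6.1, on 50 and 13 UMIs), and in all monocyte/Mφ-like cells 0.432 times (0.369 to 0.504, on 186 and 1282 UMIs). Of the 50 UMIs in DC-like cells at 72 h, 43 were in cells with at least 5 C1q UMIs, and in the DC-like cells with fewer Cd36 measured 10.5 CPM (6 UMIs) at 24 h and 14 CPM (7 UMIs) at 72 h. Axl moved in opposite directions in 2 states of monocyte/Mφ-like cells. At 72 h it was 5.82 times its 24 h level in the Arg1 state (2.51 to 14.6, on 19 and 9 UMIs) and 0.37 times in the Ly6c state (0.147 to 0.773, on 7 and 242 UMIs). The Arg1 state had 20 cells at 72 h and the Ly6c state 29. In the latter, 2 cells held the 7 UMIs, with 6 in 1 cell, and after thinning 0 cells had Axl. The interval does not cover such spread between cells. With 1 library per time point, neither difference was tested.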

How the results depend on the processing

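Under 15 other settings of clustering, filtering, scaling, thinning and doublet treatment, 263 of the counts of receptors past 2-fold stayed within 1.5 times their value and 7 did not, and 1099 of the single ratios stayed inside their interval and 44 did not. A count was judged by its number alone, whichever receptors made it up. With thinned cells, the count higher at 24 h than in naïve cells stayed at 1, with Mertk (3.7) in place of Msr1 (1.88). Of the 1099, 80 came from the setting without a CPM filter and 68 from a filter of 50 CPM. These 2 settings only choose which genes are compared and cannot move a ratio. No ratio past 2-fold changed direction. Of the ratios inside 2-fold, 6 lay on both sides of 1, namely Mertk (0.854 to 3.7) and Folr2 (0.745 to 1.08) at 24 h against naïve, Stab1 at 72 h against naïve (0.754 to 1.12), Cd36 against DC-like cells (0.997 to 1.62), Msr1 in the Fabp5 against the Ly6c state (0.973 to 1.19) and Axl in the 72 h Selenop against the naïve Cx3cr1 state (0.73 to 1.05). With cells thinned to 1500 UMIs, 0 receptors were past 2-fold lower at 72 h than at 24 h (Cd36 at 0.534), 1 was past 2-fold higher at 72 h than in naïve cells (Mertk at 4.49, where few thinned naïve cells held it), and in the 72 h Selenop against the naïve Cx3cr1 state 2 were higher and 2 lower. With CPM computed in each cell and then averaged, 0 were past 2-fold lower at 72 h than at 24 h (Cd36 at 0.502) and 2 were lower in the Selenop against the Cx3cr1 state. With 3000 variable genes, 2 were lower in the latter comparison. The cause of these differences was not tested. The ratios to B cell-like cells moved with the scaling, the averaging and the clustering, Stab1 ranging from 6.21 with ribosomal and mitochondrial genes left out of the total to 42.9 with 15 and 10 principal components. Removal of the 54 highest doublet scores, an alternative chosen after seeing the data, changed no count by more than 1.5 times. No paired analysis was possible because each time point is 1 library. Levels resting on few UMIs, such as Cd163 in naïve monocyte/Mφ-like cells (27 UMIs) and Mertk in the Cx3cr1 state, are limited by depth.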

Other observations

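The monocyte/Mφ-like clusters that stayed unnamed also held the receptors. A cluster of 270 cells with a median of 2062 UMIs, led by Hnrnpa0, Gm42418 and Uhmk1, had 245 of its cells in the 24 h library, and these measured 260.4 CPM for Mrc1 (219.8 to 306), 237 for Msr1 (198 to 281), 249.6 for Trem2 (209.9 to 295) and 57.5 for Folr2 (39.3 to 81.1). Its Mrc1 interval was above that of all monocyte/Mφ-like cells of the library (135 to 151). A cluster of 50 cells led by Cd79a, Ebf1 and Ly6d, genes of B cells, with a median of 6450 UMIs, measured 186 CPM for Mrc1 (142 to 239), 153 for Stab1 (113 to 201) and 262 for Trem2 (209.9 to 324) over the 3 libraries together. It had 4 detected markers of the Selenop state. Whether its cells were pairs of a Mφ and a B cell was not tested.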
